A study of Rattus norvegicus with 9 samples.

Results

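In PC12 cells given erastin, 202 of the 41078 transcripts in the deposited table rose to at least 4 times their untreated level and lay back near that level when PQR NPs were given with erastin. PC12 is a rat cell line from a pheochromocytoma, a tumour of the chromaffin cells of the adrenal medulla, and serves as a neuron-like model. The study had 9 libraries in 3 groups of 3, all wild type by their labels: untreated controls, cells given Erastin (the series' model of PD damage), and cells given Erastin + PQR NPs, a nanodelivery system, here called co-treated. The labels give neither dose nor duration and do not describe the particles. Nothing in them ties the 3 libraries of a group to separate cultures, and the spread between them may be technical. No library of PQR NPs without erastin was part of the design used here.

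Erastin inhibits the antiporter that exchanges intracellular glutamate for extracellular cystine. Cells short of cystine make less glutathione, the substrate with which glutathione peroxidase 4 reduces lipid hydroperoxides, and iron-dependent lipid peroxidation then leads to the form of cell death called ferroptosis. A shortage of cystine also starts stress programmes of transcription, of which the amino acid response and the oxidative stress response are the best known. Which of the 202 transcripts belong to such programmes could not be read from the data: the table lists Ensembl rat transcripts by ID alone, and a RefSeq gene table searched for all 41078 IDs held 0 of them. Markers of PC12 cells could not be looked up for the same reason. The members are therefore described by their levels and by their rank, and only the first of each ranking is printed by ID.

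The members were chosen from the measured values. Counts were divided by each library's total and multiplied by 1000000 (CPM), and differences were taken as log2 ratios of group means with 0.5 CPM added to both. A member had a control mean of at least 1 CPM, an erastin mean of at least 10 CPM, a log2 rise of at least 2, and a co-treated mean within 0.4 on the log2 scale (about 1.32-fold) of the control mean. Its lowest erastin library also had to exceed every control and co-treated library, and its mean over the 9 libraries had to be under 1000 CPM. All 3 groups entered this choice, so the differences between the groups describe the members and are no test of them. Library totals ran from 34772755 to 40826754 counts. A count of 0 allows up to 3 counts, or 0.0735 to 0.0863 CPM depending on the library, with counting error only.

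Together the members took a small part of each library. Their share was 0.286%, 0.323% and 0.390% of all counts in control libraries 1, 2 and 3, and 1.61%, 1.91% and 1.94% in erastin libraries 1, 2 and 3. In co-treated libraries 1, 2 and 3 the share was 0.311%, 0.339% and 0.384%. Every erastin library took several times the share of any other, and the co-treated values lay within the control range. The group means were 0.333% ± 0.0529 for controls, 1.82% ± 0.183 for erastin and 0.344% ± 0.0369 for the co-treatment (SD, n = 3 each). The 10 members with the highest erastin mean held 24.5% ± 0.882 of the members' counts with erastin and 25.5% ± 1.07 in controls (SD, n = 3), so the rise in share was spread over the members much as their control counts were.

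The members ranged from scarce to moderately abundant. Their control mean ran from 1.32 to 174 CPM with a median of 9.17, and the erastin mean from 10.1 to 702 CPM with a median of 52.7. Under co-treatment the mean ran from 0.907 to 182 CPM with a median of 9.72. With erastin 50 members lay under 25 CPM, 91 between 25 and 100 CPM, and 61 above that. Most rises were just past the limit: the ratio of the erastin mean to the control mean had a median of 5.14 (quartiles 4.59 and 6.68), and 137 members had a log2 rise under 2.5. A ratio of 8 or more was seen in 31 members and one of 16 or more in 5. Among the 35 members under 3 CPM in controls the median ratio was 6.43, in the 73 from 3 to 10 CPM it was 5.24, in the 63 from 10 to 30 CPM 5.02, and in the 31 above that 4.50. No member above 30 CPM in controls had a log2 rise of 3 or more. The minimum of 10 CPM with erastin and the 0.5 CPM added to both means favour larger ratios at the low end. On the log2 scale of the choice the medians were 2.41, 2.28, 2.29 and 2.16, from the lowest to the highest control level.

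**Figure D1:**
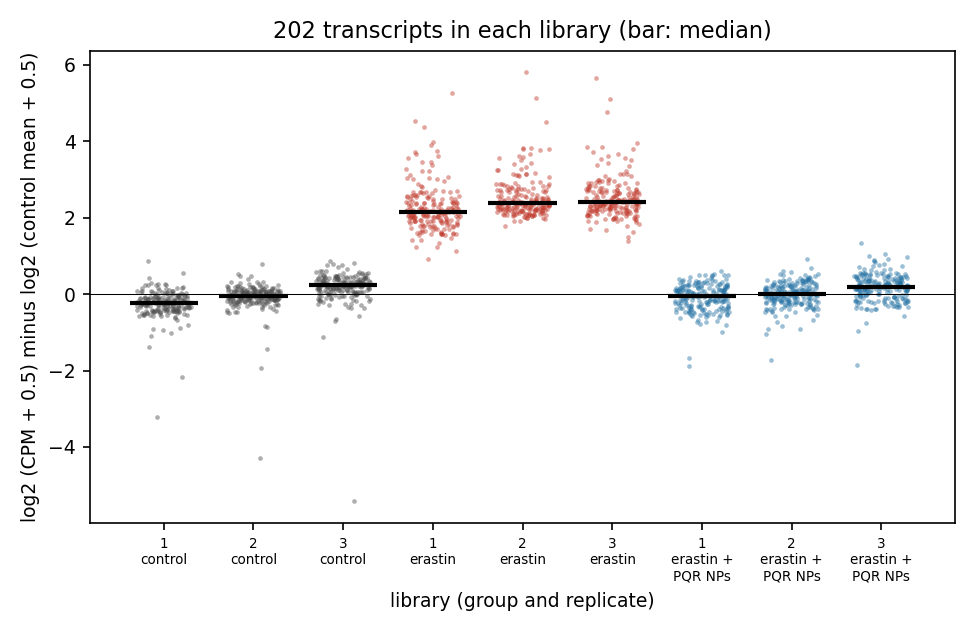
Each point is 1 of the 202 transcripts in 1 library, as log2 (CPM + 0.5) minus the log2 of its control mean + 0.5, and black bars are medians over the 202. The medians lie at 2.15, 2.38 and 2.41 in the erastin libraries and between -0.23 and 0.23 in the other 6, with control 3 and co-treated 3 the highest of their groups.

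ENSRNOT00000075681 had the largest rise of all members. Its level was 3.30, 3.70 and 2.54 CPM in control libraries 1 to 3, and 141, 206 and 185 CPM in erastin libraries 1 to 3. In co-treated libraries 1 to 3 it was 2.19, 3.40 and 4.41 CPM. Every erastin library was far above the rest, and co-treated values lay on both sides of the controls. The erastin mean was 55.7 times the control mean (177 ± 32.8 against 3.18 ± 0.592 CPM, SD, n = 3) and 53.2 times the co-treated mean of 3.33 ± 1.11 CPM. On edgeR's fitted scale its log2 change was 5.81 (SE 0.323) for erastin against control, and for co-treatment against control 0.01 with a 95% interval from -0.63 to 0.65.

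The member with the next largest rise was also the 5th most abundant with erastin. It had 9.70, 14.1 and 19.1 CPM in the controls, 308, 518 and 513 CPM with erastin, and 18.4, 17.0 and 20.7 CPM under co-treatment, each in replicate order. Erastin library 1 was the lowest of its group here, and the co-treated libraries overlapped only the upper end of the controls. Its erastin mean was 31.2 times the control mean, while the co-treated mean stayed at 1.31 times the control mean, close to the upper limit of the choice.

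The transcript of the 3rd largest rise went from 4.34, 6.23 and 14.6 CPM in the controls to 132, 200 and 241 CPM with erastin and back to 10.9, 8.03 and 8.26 CPM. Control library 3 was well above library 1 here, and the co-treated values lay between them. For the 4th the controls were tight, at 5.62, 5.95 and 6.23 CPM, and the erastin libraries held 147, 91.1 and 99.0 CPM. Its co-treated libraries, at 6.46, 7.96 and 7.55 CPM, were all above the controls in CPM from library totals. With TMM scaling, its fitted log2 change for co-treatment against control was 0.24 with an SE of 0.179. The adjusted p in edgeR's test was 0.41, so an incomplete return of this transcript was not established. The 5th was the least abundant of these, at 1.63, 0 and 2.62 CPM in the controls, 25.2, 25.6 and 26.9 CPM with erastin and 0.942, 1.47 and 1.96 CPM under co-treatment. A control library without a count left its fitted log2 change of 4.21 with an SE of 1.11, against 0.192 to 0.473 for the other 9 of the 10 largest rises.

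From the 6th to the 10th largest rise, erastin means were 52.3 to 218 CPM, or 12.1 to 14.4 times the control means. The 8th had the most even erastin and co-treated libraries of these 5, with 54.2, 49.2 and 53.4 CPM in the erastin libraries, 4.34, 3.83 and 2.70 CPM in the controls and 4.07, 3.50 and 3.11 CPM under co-treatment. Its control and co-treated ranges overlapped almost completely. Co-treated means in these 5 lay between 0.983 and 1.16 times the control means.

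**Figure D2:**
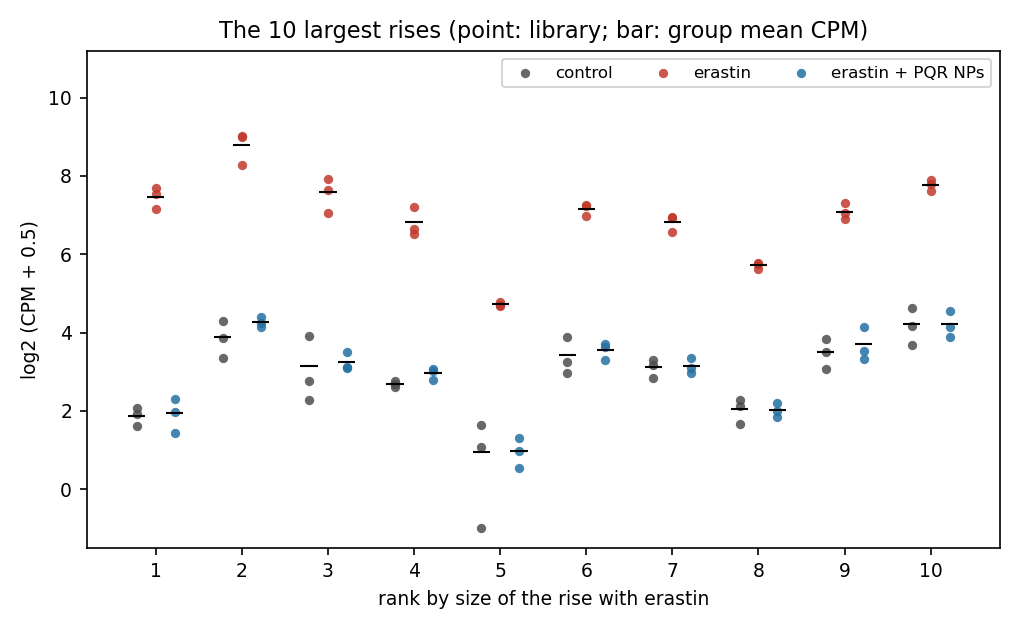
The y axis gives log2 (CPM + 0.5) in each library for the 10 members with the largest rises, ordered by rank on the x axis, with bars at the group mean CPM. For each of the 10, all erastin libraries lie above all others, control and co-treated points overlap for 9, and in the 4th the co-treated libraries lie above the controls.

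ENSRNOT00000025294 was the most abundant member with erastin and had the smallest rise of all 202. It held 152, 158 and 214 CPM in control libraries 1 to 3 and 787, 664 and 656 CPM in erastin libraries 1 to 3, a ratio of means of 4.03. Under co-treatment it held 173, 180 and 193 CPM, all within the control range. The fitted log2 change was 2.02 (SE 0.138) for erastin against control, and 0.00 for co-treatment against control, with a 95% interval from -0.30 to 0.31.

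The 2nd most abundant member had 79.96, 105 and 155 CPM in the controls, 552, 672 and 733 CPM with erastin and 120, 122 and 145 CPM under co-treatment. The 3rd had 99.0, 118 and 131 CPM in the controls, 382, 628 and 691 CPM with erastin and 79.7, 99.8 and 127 CPM under co-treatment. In both, replicate 1 was the lowest and replicate 3 the highest library of every group. The 6th had close erastin and close co-treated libraries, at 57.1, 55.6 and 72.9 CPM in the controls, 432, 409 and 418 CPM with erastin and 67.0, 69.6 and 67.7 CPM under co-treatment. Over the 10 most abundant members the ratio of erastin to control was between 4.03 and 6.78, except for the 31.2 of the member already described. Their co-treated means were 0.842 to 1.31 times the control means.

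Members were also examined for the gap that separated the groups. The rule required every member's erastin libraries to lie above the other 6, which 23.6% of the 17123 transcripts tested did. In 190 members the lowest erastin library was at least 2 times the highest other library, in 130 at least 3 times, and the median was 3.32. The gap was under 1.5 times in 3 members. In the most abundant of these the erastin libraries held 124, 307 and 312 CPM and the co-treated libraries 41.0, 76.6 and 103 CPM, so that erastin library 1 and co-treated library 3 lay close together. The least even erastin group of all members belonged to the 16th largest rise, at 33.8, 20.4 and 5.21 CPM, against 1.23 to 2.09 CPM in the controls.

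All 202 members passed the filter on low counts and were among the 17123 transcripts tested with edgeR's quasi-likelihood test. At an adjusted p of 0.05 it called 199 members higher with erastin than in controls, where 26.6% of all tested transcripts were called higher, and 199 lower under co-treatment than with erastin, where 25.9% were called lower. These comparisons chose the members and nothing is read from the counts. The fitted log2 change of the members had a median of 2.37 for erastin against control and of -2.45 for co-treatment against erastin, beside 0.02 and -0.02 over all tested transcripts. Both comparisons share the erastin libraries.

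The same 3 members were missed in both comparisons, and each had 1 control library without a count beside others well above the floor. By size of the rise they ranked 66, 110 and 122. Control libraries 1 to 3 held 38.5, 24.1 and 0 CPM of the first, 0, 5.88 and 6.46 CPM of the next, and 10.4, 0 and 17.5 CPM of the last. Their co-treated libraries were more even, at 18.0 to 27.3, 4.95 to 5.75 and 9.85 to 13.6 CPM. Without the 0, the control means of these 3 transcripts would lie above their co-treated means. Their log2 rises would then fall short of the limit of the choice, so their membership rests on that library. In all, 4 members had a control library at 0 and none had an erastin or co-treated library at 0. The sources used here do not say how reads shared by the transcripts of a gene were divided, and the part of that step in these values was not tested.

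Under co-treatment the members lay on both sides of their control level. The co-treated mean was above the control mean in 123 members and below it in 79, with a median log2 difference of 0.08 beside 0.02 over all tested transcripts. The difference fitted by edgeR, with TMM scaling, was above 0 in 108, with a median of 0.02 beside -0.03 over all tested transcripts. In 57 members the log2 difference of the mean CPM from library totals was at most 0.1 in size, and in 108 at most 0.2. The co-treated and control libraries overlapped in 190 members. In 10 members all co-treated libraries were above all controls, where 21.1% of the tested transcripts were, and in 2 they were all below, where 17.3% were. The limit of 0.4 on the difference of the means keeps these counts low.

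None of the 202 was called between co-treatment and control by edgeR's test (0 of 202, with 16.9% of all tested transcripts called). Without adjustment 6 had a p under 0.05 in edgeR's test, and DESeq2 called 0. Shares of all tested transcripts are not given here for the unadjusted p or for DESeq2, and nothing is read from these counts. The choice fixed the difference between co-treatment and control to be small, and a missed call does not show that the levels were equal. The 95% interval of the fitted log2 difference lay between -1 and 1 for 163 members, so for the other 39 a difference of 2-fold or more remained within the error. The standard error had a median of 0.23. Without control library 3 the test called 9 members, and without control library 1 it called 2. With the replicate number as a block it called 2. The 16.9% belongs to the fit on all 9 libraries without a block, and nothing is read from the counts in these refits.

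The members were then placed among all strong rises. The conditions on the control and erastin levels, on the separation of erastin from control and on abundance were met by 410 transcripts. Of these, 202 (49.3%) were the members, and 166 (40.5%) had a co-treated mean above the band around control, with a median log2 difference of 0.82. Another 40 (9.76%) lay below the band, with a median of -0.57. The remaining 2 were within the band but had a co-treated library at or above the lowest erastin library. The log2 difference between co-treatment and control over the 410 ran without a gap through both limits, with a median of 0.28. Erastin means had a median of 52.7 CPM for the members, 53.9 CPM for those above the band and 42.1 CPM for those below it. In the same order, median control means were 9.17, 7.82 and 6.89 CPM and median log2 rises 2.28, 2.57 and 2.32. Without control library 3, 255 transcripts lay above the band in place of 166 and 227 within it in place of 204, so which of these outcomes was the more frequent turned on that library.

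**Figure D3:**
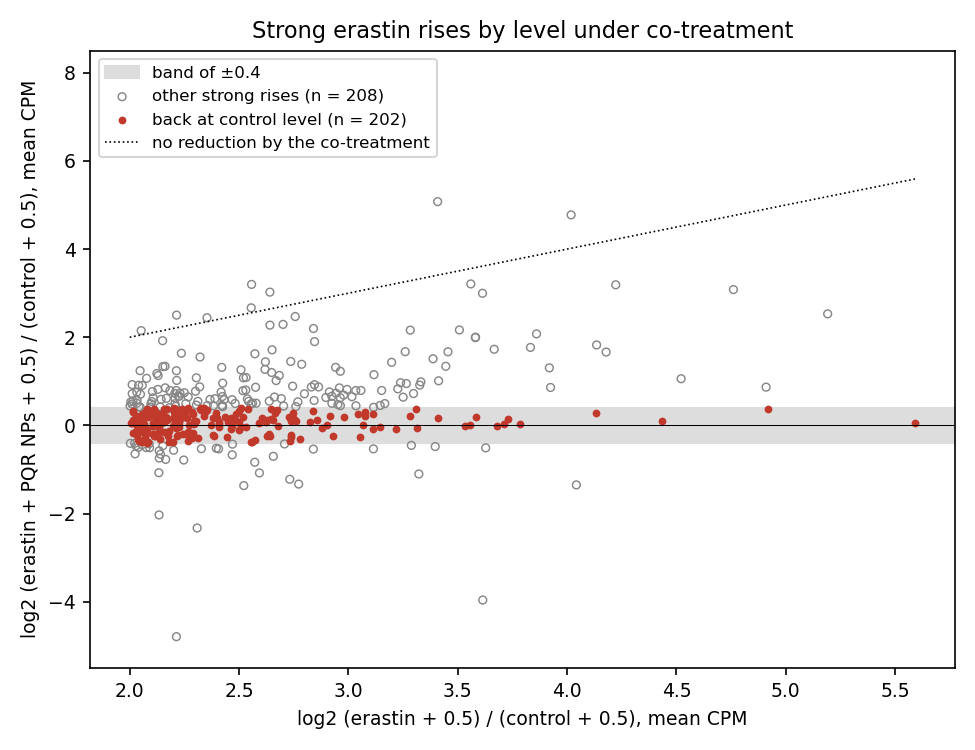
The x axis is the log2 ratio of erastin to control and the y axis that of co-treatment to control, each of mean CPM + 0.5, for the 410 strong rises. The 202 members (filled) lie in the grey band of ±0.4 and span rises from 2.01 to 5.59. Open points above it (166) and below it (40) continue the same cloud, and 2 more lie inside it. The dotted line marks no reduction by the co-treatment.

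Transcripts lay close to both sides of the limits on the rise and on the band, and more sparsely around the others. Just inside the limit on the rise, members had log2 values of 2.007, 2.013 and 2.015, and the nearest transcripts outside that met every other condition had 1.998, 1.998 and 1.997. There were 1795 transcripts in all outside that limit alone. At the upper limit of the band the nearest inside had 0.392, 0.390 and 0.387 and the nearest outside 0.402, 0.411 and 0.413, and at the lower limit these were -0.395, -0.377 and -0.375 against -0.405, -0.407 and -0.418. The erastin mean was 10.1, 10.1 and 10.2 CPM just inside its minimum and 8.93, 8.36 and 8.30 CPM just outside. For the control mean the nearest inside were 1.316, 1.317 and 1.320 CPM and the nearest outside 0.925, 0.744 and 0.616 CPM. The separation of erastin from the co-treated libraries (lowest over highest library) was 1.19, 1.21 and 1.39 inside and 0.839 and 0.834 in the only transcripts outside. Over the highest control library it was 1.72, 1.82 and 1.91 inside and 0.937 in the only transcript outside. The member with the highest mean over the 9 libraries was at 353 CPM, followed by 298 and 262, and the only transcript kept out by abundance alone was at 1200 CPM.

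The rule used group means and the separation of the groups, and set no condition on the order of the libraries within a group. In that order the members were uneven. Each library enters its group mean, however, so the limits on the means could favour some orders. The shares of tested transcripts below were not chosen in this way, and nothing is read from the contrast with them. Control library 3 was the highest control in 143 of the 202 (70.8%), against 37.8% of the 12449 tested transcripts whose control means lay in the members' range. Co-treated library 3 was the highest of its group in 121 (59.9%), against 32.6% of the tested transcripts in that range. Erastin library 1 was the lowest of its group in 142 members (70.3%), against 34.1%. All 3 held at once in 79 members. With TMM scaling the same libraries were highest or lowest in 142, 131 and 147 members, and with upper quartile scaling in 139, 125 and 145. These shares describe transcripts that vary together within 9 libraries, and no test was made of them.

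**Figure D4:**
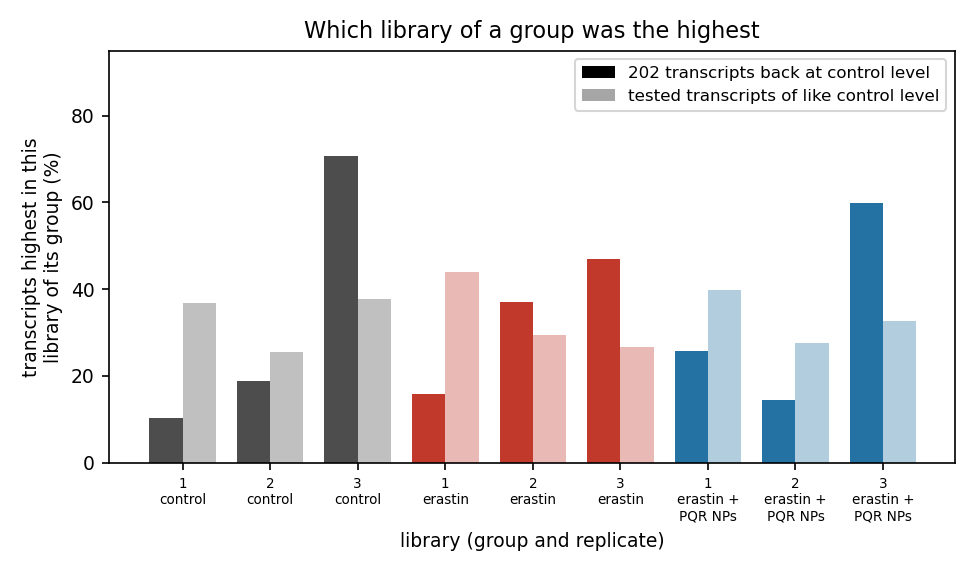
Bars give the percent of transcripts that were highest in each library of its group, dark for the 202 members and light for tested transcripts with control means in the same range. Control 3 (70.8%) and co-treated 3 (59.9%) stand out among the members. Control 1 (10.4%), co-treated 2 (14.4%) and erastin 1 (15.8%) are the lowest, and the light bars lie between 25.5% and 44.1%.

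In size this order was modest beside the rises. Relative to the mean log2 level of its group, control library 3 was higher by a median of 0.24 over the members and control library 1 lower, at -0.21. Erastin library 1 was at -0.17 and co-treated library 3 at 0.15. The coefficient of variation between the 3 control libraries had a median of 21.9% over the members, against 12.4% over the tested transcripts in the same range of control means. With erastin it was 14.5% against 12.7%, and under co-treatment 16.9% against 10.01%. The range was set on control means only, so with erastin the members, then more abundant, were not compared with transcripts of like level. It exceeded 50% in 16 members in the controls, in 3 with erastin and in 9 under co-treatment.

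Control libraries 3 and 1 also differed in this way in transcripts outside the set. There were 4201 other transcripts called lower under co-treatment than with erastin, a comparison that sets no control against another group. The fit still took its filter, scaling and spread from all 9 libraries, as for the other lists here. In these 4201, control library 3 was the highest control in 60.2% and control library 1 in 18.4%. Of 4326 called higher in that comparison, control library 3 was the highest in 18.5% and control library 1 in 57.0%. Control library 3 was above control library 1 in 72.2% of the first list and in 26.9% of the other, and in 169 of the 202 members (83.7%). In most transcripts of both lists it thus lay on the erastin side of control library 1. No such turn was seen for co-treated library 3: it was the highest of its group in 36.7% of 4330 other transcripts called higher with erastin than in controls, and in 32.9% of 4501 called lower. Erastin library 1, the lowest of its group in most members, was the highest of its group in 58.4% of 1318 other transcripts called higher under co-treatment than in controls, and in 37.4% of 1576 called lower. Erastin library 3 was the highest in 16.9% and 35.5% of these lists. The 166 strong rises that stayed above the band showed part of the members' order: control library 3 was the highest control in 51.2%, co-treated library 3 the highest of its group in 45.2% and erastin library 1 the lowest of its group in 50.6%.

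Leaving out each library in turn and choosing again on the other 8 gave 176 to 254 members. The left-out library then had no part in the choice, although the libraries of every group it was set against did. Those libraries were chosen to be low or high, so the choice favoured a separation of the left-out library from them. With erastin library 1 left out, 254 transcripts were chosen, and their median log2 rise in that library was 2.01, against 2.32 in the 2 erastin libraries used. The rise was 2 or more there in 128 of the 254 (50.4%), and the level was above every control and co-treated library in 249. Erastin library 2, left out, had a median of 2.38 over 185 transcripts, with 171 at 2 or more and 183 above all controls and co-treated libraries. In erastin library 3 the median over 195 was 2.37, with 153 at 2 or more and 190 above the others. A rise of that size was present in 3.36% to 4.30% of all tested transcripts in these libraries, and 31.2% to 32.4% were above all controls and co-treated libraries. A log2 rise of 2 or more was present in 50.4%, 92.4% and 78.5% of those chosen, for left-out erastin libraries 1, 2 and 3. The control mean behind these rises was itself part of the choice, which favoured a low one. Nothing is therefore read from their difference from the shares over all tested transcripts.

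Left-out co-treated libraries were read in the same way. Co-treated libraries 1, 2 and 3, each left out, were within 0.4 of the control mean in 130 of 186 (69.9%), 154 of 201 (76.6%) and 128 of 212 (60.4%) of the transcripts chosen without them. Over all tested transcripts these shares were 61.9%, 62.6% and 63.6%. The medians were -0.03, -0.01 and 0.25, and 184, 200 and 212 were below every erastin library, where 35.7% to 38.2% of all tested transcripts were. The erastin libraries had been chosen to be high in these transcripts, so the choice favoured this separation and nothing is read from it. So the shares within 0.4 of control were above those of all tested transcripts in libraries 1 and 2 and below them in library 3, differences that were not tested.

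The same was done for the controls. Control library 2, left out, was within 0.4 of the mean of the other controls in 168 of 199 transcripts (84.4%; 82.2% of all tested). Control library 1 was within it in 107 of 176 (60.8%; 77.8% of all tested), with 60 below, and control library 3 in 112 of 226 (49.6%; 74.8% of all tested), with 107 above. The untreated libraries thus differed among themselves by more than the band for many of these transcripts. Of the 202 members, 77 were chosen again whichever library was left out, 41 in 8 of the 9 runs and 84 in 7 or fewer. Without control library 3, 146 of the 202 were chosen again among 226, and without control library 1, 145 among 176.

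**Figure D5:**
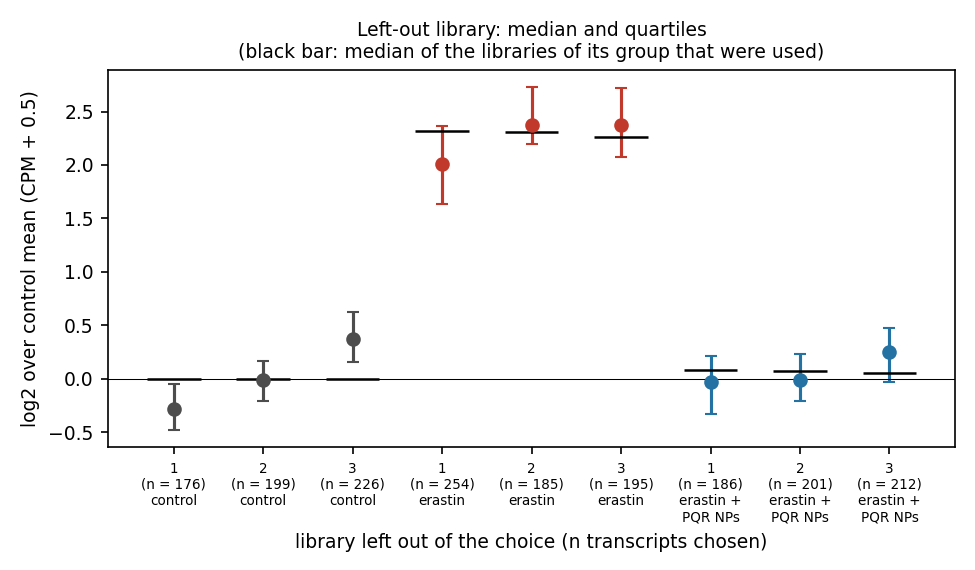
Points are medians and whiskers quartiles of the log2 ratio of a left-out library to the control mean (CPM + 0.5), over the transcripts chosen without it (n under each library), and black bars are the medians of the libraries of its group that were used. Left-out erastin libraries lie at 2.01, 2.38 and 2.37, left-out co-treated libraries at -0.03, -0.01 and 0.25, and control 3 at 0.37 against -0.28 for control 1.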

How the data were processed

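Raw counts of reads for each Ensembl rat transcript in each library, without normalization, make up the single table that the authors deposited. HISAT2 2.2.1 and the build Rnor 6.0 are named in the submitters' processing notes. The sources used here do not name the counting program or annotation, or say whether strand was used. Libraries were made from poly(A)-selected RNA by random priming and PCR and read from both ends, per the labels' protocols, which name no molecular identifiers.

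Columns were assigned by the name in each title. No libraries of a group agreed within sampling noise (chi-square per degree of freedom 32.0 to 72.2). The rule for members was applied to CPM from column totals. edgeR 4.0.16 (R 4.3.3, limma 3.58.1) fitted all 9 libraries with TMM scaling, its own filter on low counts and Benjamini-Hochberg adjustment over 17123 transcripts, and was checked on simulated data. SE and 95% intervals come from its F statistic. Alternatives were DESeq2 1.42.0, other scalings, filters and limits, the replicate number as a block, and each library left out. The rule for naming took the 10 largest rises and the 10 highest erastin means (19 transcripts); others described were chosen after their values were seen. Without gene names, the gene lists and markers could not be used. The members, lists and tests were chosen with earlier results of these data known.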

Additional observations from a re-analysis of the deposited data

How the results depend on the processing

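The number of members followed the limits: 519 with a log2 rise of at least 1.5 and 65 with one of at least 2.5, in place of 202. It was 152 and 240 with a band of 0.3 and 0.5, 219 and 188 with 0.1 and 1 CPM added, and 215 and 195 with TMM and upper quartile scaling, of which 193 and 192 were among the 202. With a library left out it was 176 to 254. Members called ranged from 197 to 200 (199 with all libraries) for erastin against control and from 195 to 200 (199) for co-treatment against erastin, and for co-treatment against control from 0 to 9 (0), with 2 under the replicate block. The shares of all tested transcripts called that are given above belong to the fit on all 9 libraries without a block. Strong rises within the band ranged from 177 to 254 (204), those above it from 144 to 255 (166) and those below it from 28 to 50 (40). The members' share of counts ranged from 0.304% to 0.356% in controls, 1.76% to 1.92% with erastin and 0.325% to 0.361% under co-treatment. For the 19 ranked members, none of 266 refits of erastin against control and none of 266 of co-treatment against erastin changed a call or a direction. Between co-treatment and control 1 of 266 made a call, for the 6th most abundant member without control library 3 (edgeR adjusted p 0.0318, the lowest over its alternatives, which reached 0.969). Not all same-numbered libraries deviated together over all tested transcripts (correlation -0.00333 to 0.136 over 9 pairs, the best match in 9 of 18), so the numbers were not taken to pair the samples. Over the members alone the erastin and co-treated libraries correlated at 0.332, -0.0906 and 0.344 for numbers 1, 2 and 3, and the 6 same-numbered pairs with a control at -0.0832 to -0.00454. The block changed no call count in the other comparisons. At depths of 34772755 counts or more, the spread between libraries exceeded the counting error over all transcripts together, as the chi-square values show. Those values weigh abundant transcripts most and do not show the same for the scarce members.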
